A study of Mus musculus with 2 samples.

Results

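Muscle connective tissue fibroblasts were taken here as the cells with at least 3 UMIs of the transcription factor genes Osr1 and Meox2 together, in single-cell RNA-seq of cells sorted from E14 mouse embryos. A UMI is a molecular tag that counts 1 captured RNA molecule. Cells needed at least 1000 UMIs, at most 10% of them mitochondrial, and at least 5 UMIs of Col3a1, the fibrillar collagen gene of soft connective tissue. They could hold at most 1 UMI of the muscle genes Pax7 and Myog, fewer than 5 of the tendon genes Tnmd and Scx, fewer than 5 of the fascia genes Dpt, Clec3b and Cd55, fewer than 10 of the cartilage genes Acan, Col9a1 and Matn1, and none of the distal limb gene Hoxd13. The rule kept 641 of 22086 cells that passed the quality limits, from 27766 barcodes in all. Because measured UMIs chose these cells, their Osr1, Meox2 and Col3a1 values are a description, and so are all differences from cells that were not chosen.

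The study asked how the splicing factor Srsf2 acts in the Myf5 lineage of the embryo, and cells were sorted on tdTomato (tdT), a red reporter that Cre switches on. One library was labelled SRSF2 f/f, Myf5-Cre, tdT, with both Srsf2 alleles floxed, and the other SRSF2 f/w, Myf5-Cre, tdT, with 1 floxed and 1 wild-type allele. Both carry Myf5-Cre, whose driver gene is active in early muscle progenitors, and both carry the reporter, so every share below is a share of cells that passed the tdT gate. There was 1 library per genotype and therefore no replicate check and no test of any difference between them. Intervals are 95% and cover counting error only.

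Srsf2 itself was at 196 CPM (its summed UMIs over the summed UMIs of the cells, scaled to a common total) in the fibroblasts of the library labelled f/f and at 148 CPM in those of the library labelled f/w. The level was thus lower in the library whose label keeps a wild-type allele, with a log2 ratio of -0.40 (-0.55 to -0.25). Col3a1 cells without Osr1 and Meox2 UMIs gave -0.49 (215 and 153 CPM). Myogenic cells, those with at least 3 UMIs of Pax7 and Myog, numbered 1763 of 12144 cells (14.5%) in the library labelled f/f and 96 of 9942 (0.966%) in the library labelled f/w. The quality pages of the study head these libraries the other way round, as Het/tdT for the one labelled f/f and MKO/tdT for the one labelled f/w. In the paper's text the control kept fewer cells than the mutant, as the library labelled f/w does here. Its muscle share was larger in the control, which runs as the headings do. Every direction given below is between library labels, and its genotype reading turns round under those headings. Srsf2 lies at chr11:116849901-116853094 (minus strand, GRCm38), and whether its counted reads fall in the floxed part was not tested. Mettl23 and Mfsd11 overlap the gene on the other strand, as Igf1os overlaps Igf1 and Ralgps2 overlaps Angptl1, and whether counting used strand is not given in the sources used here.

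Muscle connective tissue is the mesenchyme that lies between and around developing muscle fibres. Its fibroblasts secrete collagens, growth factors and guidance cues and help to shape the muscle they surround. Osr1 encodes an odd-skipped zinc-finger transcription factor and Tcf7l2 a Wnt effector, both used as markers of these cells, and Meox2 encodes a homeobox factor of somites and limb mesenchyme. Igf1 encodes a growth factor that promotes myoblast growth, and Angptl1 a secreted angiopoietin-like protein.

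The library labelled f/f gave 404 of these fibroblasts among 12144 cells, 3.33% (3.01 to 3.66), and the library labelled f/w gave 237 among 9942, 2.38% (2.09 to 2.70). The log2 ratio of the shares, f/w over f/f, was -0.48 (-0.71 to -0.25). Both shares depend on what else the gate held. Among cells with at most 1 UMI of Pax7 and Myog the shares were 4.07% and 2.41%, a log2 ratio of -0.76, while among cells within every limit other than that on Osr1 and Meox2 they were 9.40% and 8.16%, a log2 ratio of -0.20 whose interval (-0.43 to 0.02) spans 0. The fibroblasts held 5364655 and 3605171 UMIs in the libraries labelled f/f and f/w. Their median cells had 11134.5 and 12171 UMIs, against 8826 and 8994 in the Col3a1 cells without Osr1 and Meox2 UMIs. The libraries share 74 barcodes in all, and none is a fibroblast in both.

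Most of these cells held Meox2. In the following, paired values are given for the library labelled f/f first and the library labelled f/w second. Meox2 without any Osr1 UMI was found in 166 (41.1%) and 115 (48.5%) fibroblasts, both genes in 175 (43.3%) and 83 (35.0%), and Osr1 without Meox2 in 63 (15.6%) and 39 (16.5%). The median fibroblast held 1 Osr1 UMI in each library, with a highest count of 7 and 10, and 3 Meox2 UMIs, with a highest count of 16 and 13. Within the cells that passed every other limit, a Meox2 UMI was found in 32.1% and 26.3% of those with an Osr1 UMI and in 20.5% and 19.8% of those without. These cells were not matched for depth.

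**Figure D1:**
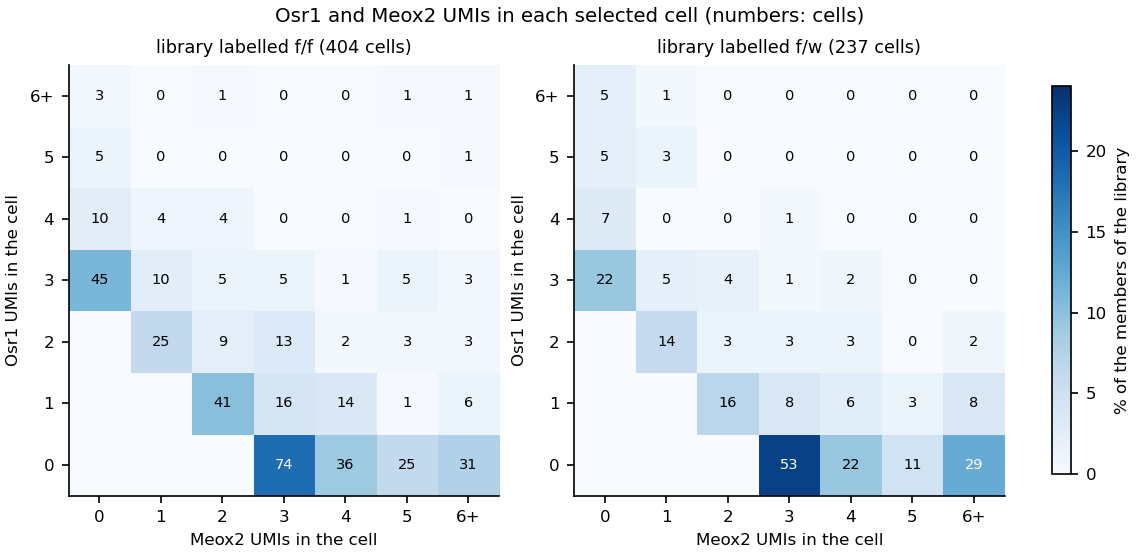
Cells by their number of Meox2 UMIs (x axis) and Osr1 UMIs (y axis) in the library labelled f/f (404 cells, left) and the library labelled f/w (237 cells, right); numbers are cells and colour is the percentage of the fibroblasts of that library. The largest cell of each grid is 3 Meox2 UMIs without Osr1, with 74 and 53 cells.

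The levels of the marker genes set the fibroblasts against 5 other populations of the same libraries. Reference cells passed every other limit and held no Osr1 or Meox2 UMI (2789 and 1995 cells). Tendon cells and fascia cells were Col3a1 cells at or over the limit on the tendon genes (425 and 256) or the fascia genes (795 and 271). Endothelial cells held at least 5 UMIs of Pecam1, Kdr and Cdh5 and fewer than 5 of Col3a1 (332 and 906), and the myogenic cells were those given above.

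Osr1 (ENSMUSG00000048387, chr12:9570116-9581500, plus strand) was at 103 and 84.6 CPM in the fibroblasts and at 75.9 and 55.2 CPM in fascia cells, but at 7.97 and 8.28 CPM in tendon cells. Meox2 (ENSMUSG00000036144, chr12:37108540-37179534, plus strand) was at 232 and 207 CPM, with 113 and 70.1 CPM in tendon cells and 65.4 and 71.9 CPM in endothelial cells. Fascia cells held 38.5 and 27.4 CPM of Meox2. Both genes chose the fibroblasts, and reference cells hold none of either by definition, so these levels are a description. Cells just outside the rule, with 1 Osr1 or Meox2 UMI (790 and 481 cells) or 2, also held Osr1, at 45.7 and 39.0 CPM and at 68.6 and 47.2 CPM.

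Igf1 (ENSMUSG00000020053, chr10:87858265-87937042, plus strand) was at 458 CPM in the fibroblasts of the library labelled f/f and at 288 CPM in those of the library labelled f/w. These were the highest levels of the 6 populations in each library, followed by tendon cells (313 and 249 CPM), fascia cells (275 and 183), reference cells (170 and 164), endothelial cells (100.1 and 95.5) and myogenic cells (22.9 and 31.8). Angptl1 (ENSMUSG00000033544, chr1:156838562-156861078, plus strand) was at 266 and 158 CPM, second to tendon cells (378 and 250 CPM) and above fascia cells (226 and 110 CPM), reference cells (128 and 98.1 CPM) and endothelial cells (4.78 and 4.20 CPM). Tcf7l2 was at 137 and 83.5 CPM in the fibroblasts, also the highest level in each library. Fascia cells held 110 and 69.4 CPM of it and myogenic cells 95.7 and 78.3 CPM. Endothelial cells held 77.9 and 56.7 CPM, tendon cells 73.8 and 63.9 CPM and reference cells 73.8 and 59.7 CPM. Of the markers given for these cells, Igf1 and Tcf7l2 were thus at their highest CPM here. Angptl1 was at its highest in tendon cells.

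Single cells varied widely, with 0 to 43 Igf1 UMIs in each library (median 4 and 2) and up to 31 and 20 Angptl1 UMIs (median 2 and 1). After every cell was thinned to 3000 UMIs, an Igf1 UMI was found in 53.5% and 43.0% of the fibroblasts, in 48.5% and 49.0% of tendon cells, in 44.8% and 35.1% of fascia cells, in 28.6% and 26.5% of reference cells and in 25.9% and 28.1% of endothelial cells. By this measure tendon cells were above the fibroblasts in the library labelled f/w. For Angptl1 the shares were 45.3% and 36.7%, against 62.8% and 51.8% in tendon cells, 42.1% and 25.5% in fascia cells, 26.6% and 22.2% in reference cells and 0.602% and 1.55% in endothelial cells. Angptl1 in endothelial cells was thus near 0, whereas an Igf1 UMI was found in endothelial cells about as often as in reference cells. Pdgfra, the receptor gene common to fibroblasts, gave 27.0% and 28.3% of fibroblasts and 1.51% and 1.10% of endothelial cells. A Tcf7l2 UMI was found in 33.4% and 21.5% of fibroblasts and in 24.9% and 20.8% of myogenic cells. Fascia cells gave 25.9% and 19.9%, endothelial cells 22.3% and 18.6%, reference cells 19.9% and 16.6% and tendon cells 17.2% and 17.6%. For Tcf7l2 in the library labelled f/w the intervals of fibroblasts (16.5% to 27.3%) and myogenic cells (13.2% to 30.3%) overlap. Without thinning, the shares of fibroblasts with a UMI were 72.5% and 62.9% for Igf1, 79.0% and 69.2% for Angptl1, 84.4% and 83.5% for Meox2 and 58.9% and 51.5% for Osr1.

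The 250 bases before a RefSeq transcription start of 3 marker genes are shown (GRCm38.p6, plus strand), because Igf1 and Angptl1 were higher together in these cells. Capitals mark TAAT on either strand (the core that homeobox factors such as Meox2 bind, read as TAAT or ATTA) and CANNTG, the E-box, which reads the same on both strands.
Meox2, chr12:37108290-37108539: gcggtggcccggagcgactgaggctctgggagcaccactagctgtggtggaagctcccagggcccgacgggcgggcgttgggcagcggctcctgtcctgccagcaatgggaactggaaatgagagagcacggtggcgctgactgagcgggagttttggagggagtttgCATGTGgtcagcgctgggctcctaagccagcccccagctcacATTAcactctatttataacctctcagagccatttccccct
Igf1, chr10:87860861-87861110: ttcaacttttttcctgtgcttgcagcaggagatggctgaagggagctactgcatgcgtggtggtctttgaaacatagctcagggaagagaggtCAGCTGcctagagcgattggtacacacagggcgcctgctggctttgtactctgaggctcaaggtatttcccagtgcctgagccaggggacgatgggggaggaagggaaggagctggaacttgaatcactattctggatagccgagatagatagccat
Angptl1, chr1:156838773-156839022: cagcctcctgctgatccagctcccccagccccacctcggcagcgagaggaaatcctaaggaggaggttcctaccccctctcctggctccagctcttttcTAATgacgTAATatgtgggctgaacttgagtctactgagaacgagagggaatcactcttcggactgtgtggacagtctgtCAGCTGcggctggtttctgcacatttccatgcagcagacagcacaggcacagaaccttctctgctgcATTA
The window of Angptl1 holds 3 TAAT cores and 1 E-box, that of Meox2 1 of each, and that of Igf1 no TAAT core and 1 E-box. Of 32851 promoter windows of this length, 54.9% hold a TAAT core and 66.2% an E-box. The windows of Igf1 and Angptl1 lie inside the GENCODE gene spans given above, since that annotation starts both genes further upstream. These matches are a description of letters, not of binding.

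The limit of 3 UMIs cuts through a gradient in the library labelled f/f and through a less even rise in the library labelled f/w. Just outside it, cells with 2 Osr1 and Meox2 UMIs (314 and 192 cells) had 346 and 256 CPM of Igf1 and 234 and 134 CPM of Angptl1. Just inside, cells with 3 UMIs (185 and 105) had 440 and 324 CPM of Igf1 and 248 and 179 CPM of Angptl1. From 0 UMIs to 5 or more, Igf1 went from 170 to 520 CPM in the library labelled f/f and from 164 to 299 CPM in the library labelled f/w. Angptl1 went from 128 to 304 and from 98.1 to 160 CPM. In the library labelled f/w both genes were higher at 3 UMIs than at 5 or more.

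**Figure D2:**
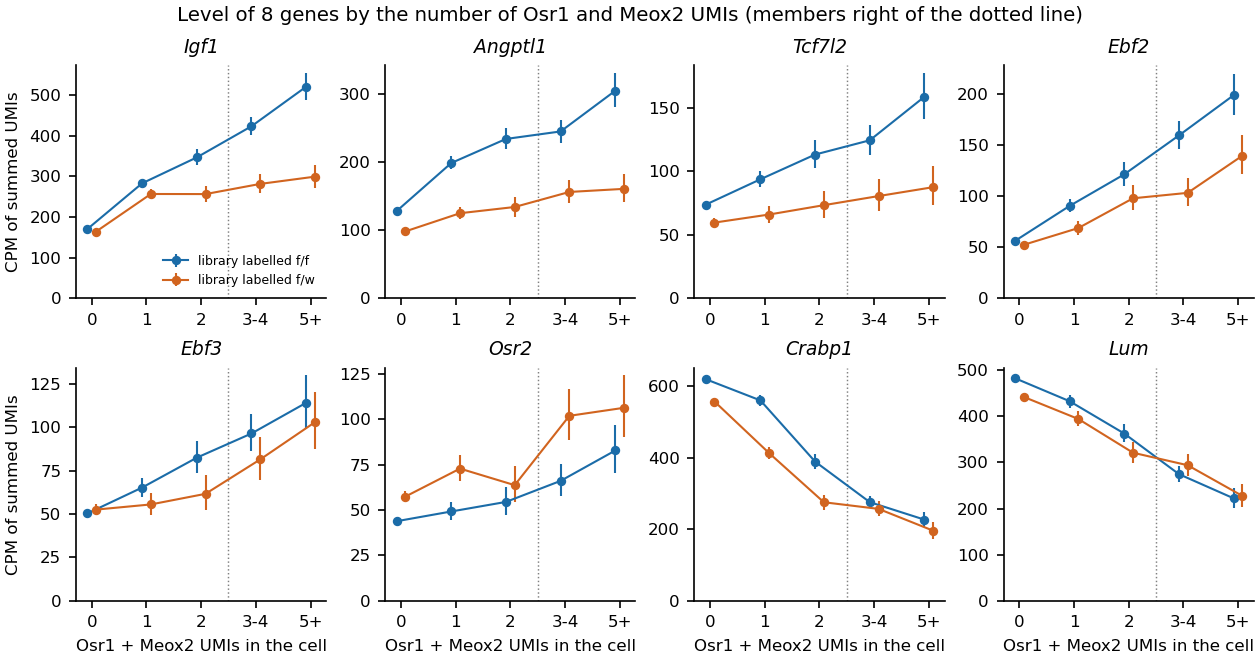
CPM of summed UMIs (y axis, linear, from 0) of 8 genes in Col3a1 cells grouped by their Osr1 and Meox2 UMIs (x axis), in the library labelled f/f (blue) and the library labelled f/w (orange), with 95% counting intervals. Fibroblasts lie right of the dotted line; Igf1 reached 520 and 299 CPM at 5 or more UMIs, while Lum and Crabp1 were lower there than at 0 UMIs.

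Against the reference cells, 44 of 2786 genes with at least 200 UMIs in the fibroblasts of each library were past 1.5-fold higher in both libraries (1.58%) and 12 were past 1.5-fold lower (0.431%). Median log2 ratios over all 2786 genes were 0.04 and 0.03. Igf1 had log2 ratios of 1.43 and 0.81 and Angptl1 of 1.06 and 0.69. Genes of the rule were left out of this comparison, and the cells compared were chosen on the same UMIs.

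Several transcription factor genes were among those higher. Ebf2, a transcription factor of mesenchymal and brown adipose precursors, was at 174 and 118 CPM against 56.2 and 52.4 CPM in reference cells (log2 ratios of 1.63 and 1.18). Its relative Ebf3 gave 1.03 and 0.78, the odd-skipped factor Osr2 and the nuclear receptor Nr2f2 were past the fold as well, and the zinc-finger repressor Zeb1 gave 0.91 and 0.93. Of 40 mesenchymal transcription factors on the list, 15 could be compared, and these 4, Osr2, Ebf2, Ebf3 and Nr2f2, were higher and Sox9, the master regulator of cartilage, was lower (-0.61 and -0.78), against 1.58% higher and 0.431% lower of all genes. The median of the 15 was 0.45 and 0.09.

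Signalling genes followed. Igfbp6, which encodes a binding protein that prefers IGF2, was at 60.95 and 68.8 CPM against 19.7 and 27.2 CPM (log2 ratios of 1.63 and 1.34). The ephrin receptor gene Epha3 was at 79.6 and 111.5 against 38.97 and 47.95 CPM (1.03 and 1.22), and Agtr2, an angiotensin receptor, at 129 and 67.1 against 60.4 and 33.6 CPM. Fascia cells, which the rule kept out of the reference, held Agtr2, Igfbp6 and Osr2 more often than the fibroblasts did. At 3000 UMIs per cell the shares of fascia cells and of fibroblasts were 51.6% against 31.4% for Agtr2 in the library labelled f/f and 46.9% against 22.4% in the library labelled f/w. They were 15.6% against 10.4% and 23.2% against 11.0% for Igfbp6, and 31.1% against 14.9% and 38.4% against 23.2% for Osr2. Lpar4, a lysophosphatidic acid receptor, gave 0.95 and 0.91, and Nid2, a basement membrane nidogen, 1.17 and 0.89. Iqgap2, Phactr2, Filip1l and Morc4 were also among the 15 genes furthest above the reference, with log2 ratios from 0.85 to 1.42.

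The 10 lowest genes included several of cartilage and bone. Crabp1, a retinoic acid-binding protein, was at 258 and 232 CPM against 619 and 557 CPM (-1.26 and -1.27). Lum, the collagen-binding proteoglycan lumican, was at 256 and 266 CPM against 483 and 442 CPM (-0.92 and -0.73), and the cartilage genes Mia, Col9a3 and Col11a1 were lower in both libraries, with ratios from -0.90 to -0.61. Fibroblasts with Osr1 alone held 412 and 496 CPM of Lum and 501 and 369 CPM of Crabp1. Those with Meox2 alone held 202 and 234 CPM and 211 and 178 CPM. Lum in the cells with Osr1 alone was thus not below the reference cells in the library labelled f/w. The orphan nuclear receptor gene Nr4a2 gave -1.01 and -1.02, the opioid precursor gene Penk -1.04 and -0.62, and the nuclear RNA Neat1 -0.66 and -1.06. Ibsp, the bone sialoprotein gene, gave -1.16 and -2.92, but 1 cell held 25.5% of its UMIs in the fibroblasts of the library labelled f/f and 1 cell 42.8% in those of the library labelled f/w. On the list of collagens of soft tissue and basement membrane, which leaves out the cartilage collagens Col9a3 and Col11a1, none of 14 genes compared passed the fold. On the list of other matrix genes Lum was the only one of 25. Of all genes 1.58% were higher and 0.431% lower, so few calls would be found on lists of this length in any case.

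Among the 15 highest genes were 4 known from endothelial cells. Cldn5, the tight junction claudin of blood vessels, gave 2.66 and 2.26, the lymphatic chemokine gene Ccl21a 2.72 and 0.85 (its symbol is carried by 2 rows of the matrix, of which 1 was used), Cavin2 1.16 and 1.69 and Gng11 0.92 and 1.26. Cells with at least 3 UMIs of Pecam1, Kdr and Cdh5 made up 3.96% and 9.70% of the fibroblasts, against 1.08% and 2.91% of reference cells. Cells with 3 such UMIs or at least 5 UMIs of the neural, immune, Schwann, epithelial, erythroid or osteoblast markers were removed. This left 528 fibroblasts (352 and 176), in which Cldn5 held 1 and 7 UMIs. No limit was set on pericyte, chondrocyte or myogenic markers, so cells holding these could remain. Of all fibroblasts, 7.43% and 11.4% held at least 5 pericyte UMIs. At least 5 chondrocyte UMIs were held by 22.3% and 30.0%, and at least 5 myogenic UMIs by 6.44% and 3.38%. Against reference cells reduced in the same way (2325 and 1586), Ccl21a gave -0.67 and -0.05, from 14 and 32 UMIs. Cavin2 gave 0.09 and -0.06 and Gng11 0.45 and -0.17. This set of fibroblasts was chosen after its values were seen. Ebf2 gave 1.55 and 1.37 there, Igf1 1.32 and 0.93, Angptl1 0.97 and 0.81, Ebf3 0.96 and 0.93, Epha3 1.04 and 1.40, Sox9 -0.72 and -0.80, and Crabp1 -1.19 and -1.29, each in the direction seen with all fibroblasts. Nr2f2 (0.79 and 1.02) no longer reached 200 UMIs in each library and was not counted. Tcf7l2 and Ebf1, which had not passed the fold with all fibroblasts, passed it there, and Col11a1 (-0.48 and -0.46) did not. In that set 27 of 1676 genes were higher and 12 lower, of which 18 and 6 were among the 44 and 12.

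**Figure D3:**
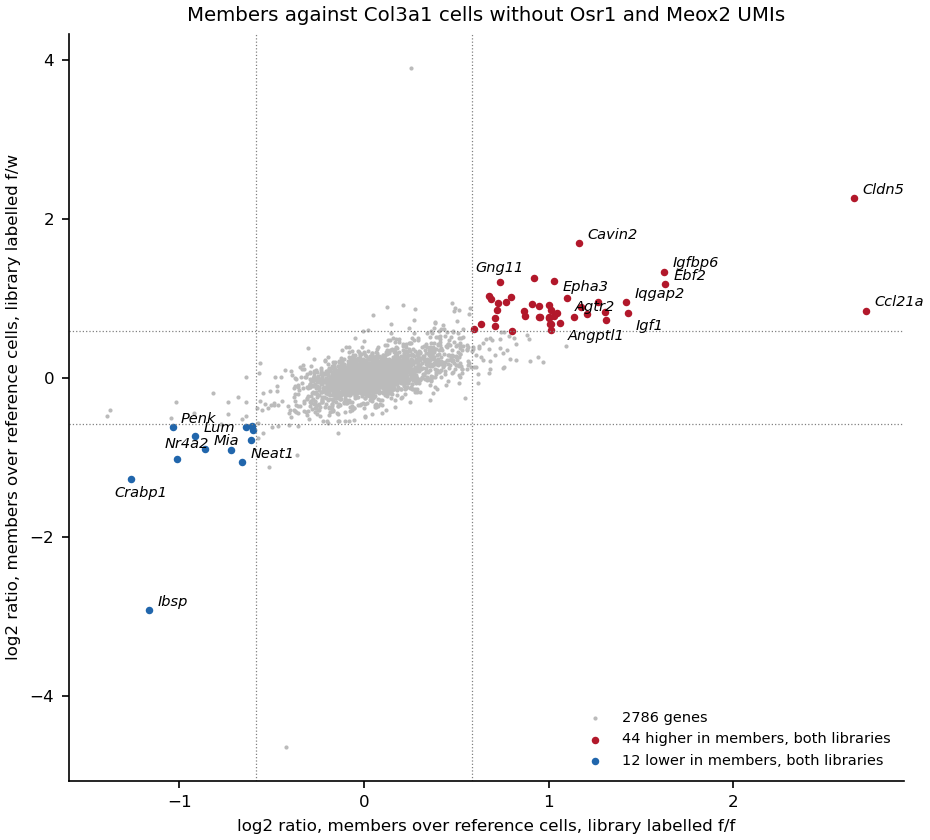
log2 ratio of CPM, fibroblasts over Col3a1 cells without Osr1 and Meox2 UMIs, in the library labelled f/f (x axis) and the library labelled f/w (y axis), for 2786 genes (grey); dotted lines mark 1.5-fold. The 44 genes past the fold in both libraries are red, with Cldn5 furthest out at 2.66 and 2.26, and the 12 that are lower are blue, with Crabp1 at -1.26 and -1.27.

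The fibroblasts were not uniform. Cells with Osr1 alone (63 and 39) and cells with Meox2 alone (166 and 115) differed past 2-fold in both libraries in 73 of 5332 genes, 32 of them higher in Osr1-only cells (0.6%) and 41 higher in Meox2-only cells (0.769%). Dcn, the proteoglycan decorin, was at 1105 and 1314 CPM against 403 and 448 CPM (log2 ratios of 1.46 and 1.55). The chemokine gene Cxcl14 gave 3.52 and 3.75, Twist2, a transcription factor of dermal and mesenchymal precursors, 2.97 and 2.94, the IGF-binding protein gene Igfbp2 1.97 and 1.79, and the adhesion molecule gene Vcam1 1.61 and 2.13. Twist2 was at 113 and 150 CPM in Osr1-only cells, 14.4 and 19.6 CPM in Meox2-only cells and 137 and 119 CPM in reference cells. Cxcl14 was at 110 and 421, 9.57 and 31.4, and 107 and 154 CPM in these cells. Of 12 signal antagonists 4 were higher in Osr1-only cells, the Wnt antagonists Sfrp1, Sfrp2 and Dkk2 with Igfbp2, and of 32 matrix genes 3, Dcn, Lum and Eln. Sfrp1 (0.99 and 1.51) and Eln (1.09 and 0.76) were not past 2-fold in both libraries without cells holding markers of other cell types.

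Igf1 and Angptl1 were found in both classes. Igf1 was at 495 and 441 CPM in Osr1-only cells, 368 and 226 CPM in Meox2-only cells and 536 and 307 CPM in cells with both genes. Angptl1 was at 218 and 119, 231 and 162, and 319 and 167 CPM in these classes. Ebf2 was lower in Osr1-only cells, with 106 and 57.7 CPM against 178 and 139 CPM in Meox2-only cells and 193 and 116 CPM in cells with both. None of these 3 genes passed 2-fold in both libraries.

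The 10 genes furthest towards the Meox2-only cells were mostly known from blood vessels. The endothelial genes Kdr (-3.43 and -2.61, from 3 and 4 UMIs in Osr1-only cells), Cldn5, Emcn and Adgrf5 and the capillary fatty acid genes Fabp4 and Cd36 (0 UMIs of Cd36 in Osr1-only cells of the library labelled f/w) were among them, with Rgs5 of pericytes (-3.03 and -2.17, from 3 and 5 UMIs). After cells holding markers of other cell types were removed, 8 genes of 3937 were higher in Meox2-only cells (138 and 87 of these cells remained, and 55 and 32 Osr1-only cells), of which 6 were among the 41. Rgs5 (-4.25, -9.58 to -1.70, from 1 UMI in Osr1-only cells, and -2.67), the muscle and vessel lectin gene Chodl (-2.24 and -2.23), the cadherin gene Cdh4, the transcription factor genes Foxd1 (-1.39 and -2.76) and Trps1, and Col4a1, a basement membrane collagen (-1.11 and -1.13), were on that side. Rgs5 is on the pericyte list and Chodl on the myogenic list, and no cell was removed by either list. With all fibroblasts Foxd1 had not differed between the classes in the library labelled f/f (59.4 and 60.9 CPM, -0.04, -0.54 to 0.45). On the Osr1 side 23 genes were past the fold, 14 of them among the 32, with Cxcl14 at 3.94 and 3.60, Twist2 at 3.20 and 2.47 and Dcn at 1.34 and 1.03. Kdr, Pecam1 and Cdh5 chose the cells removed, so their own change between these sets is fixed by that choice.

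**Figure D4:**
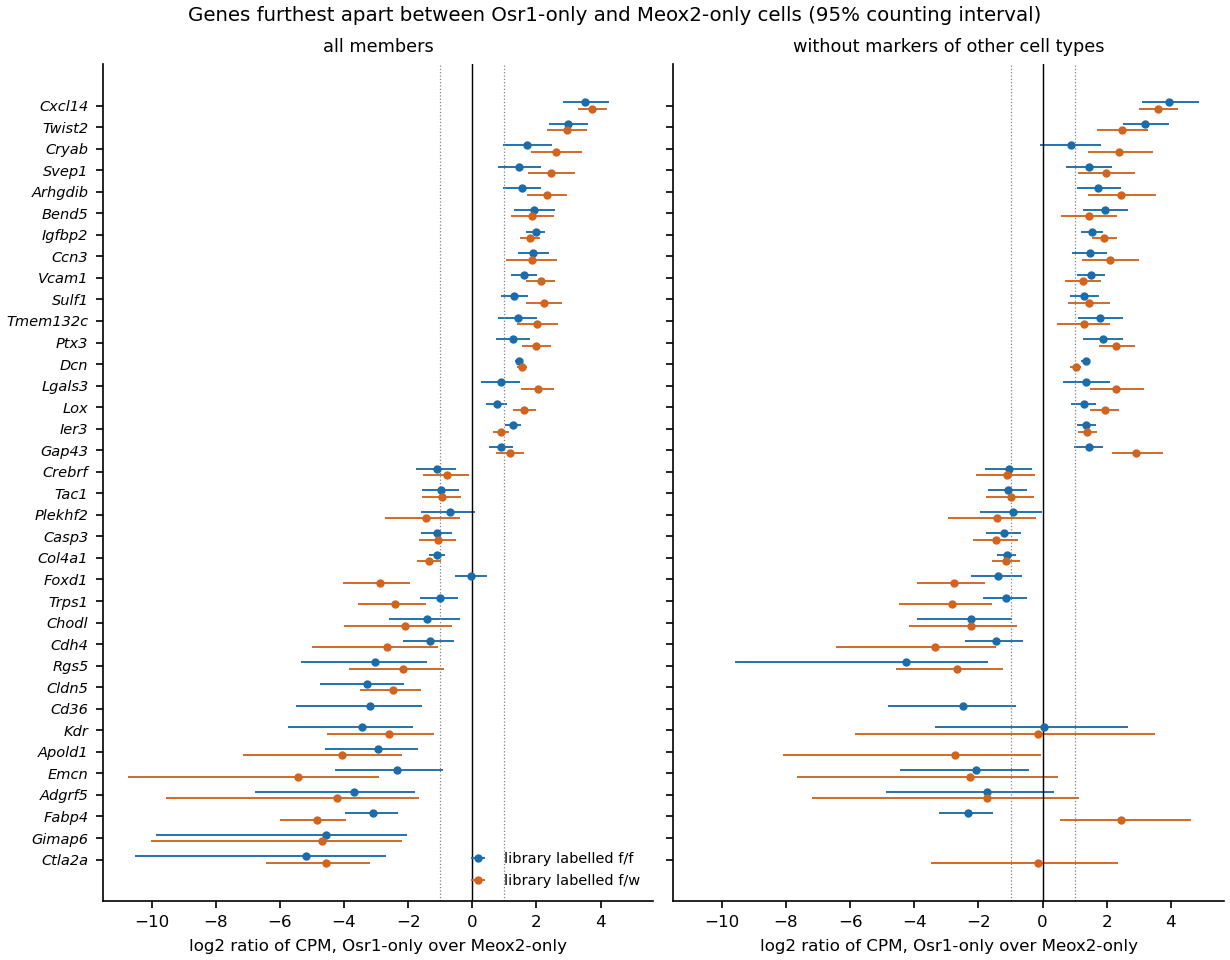
log2 ratio of CPM, Osr1-only over Meox2-only cells (x axis), of the genes furthest apart (rows), in the library labelled f/f (blue) and the library labelled f/w (orange) with 95% counting intervals; all fibroblasts left, those without markers of other cell types right. Dotted lines mark 2-fold. Pericyte, chondrocyte and myogenic markers were not used to remove cells on the right. Cxcl14 and Twist2 lie at the top of both panels, and Kdr, at -3.43 and -2.61 left, is one of the genes by which cells were removed on the right; genes with 0 UMIs in a class have no point.

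Between the libraries, 122 of 5539 genes with at least 200 UMIs in the fibroblasts were past 1.5-fold higher in the library labelled f/w (2.2%) and 186 past 1.5-fold lower (3.36%). The median log2 ratio was -0.05. Igf1 (458 and 288 CPM) had a log2 ratio of -0.67 (-0.77 to -0.56) and Angptl1 (266 and 158 CPM) of -0.76 (-0.90 to -0.61), both lower in the library labelled f/w. Osr1 (-0.29) and Meox2 (-0.16), the genes of the rule, did not pass the fold. In reference cells the ratio was -0.05 for Igf1 and -0.38 for Angptl1, in tendon cells -0.33 and -0.60, and in fascia cells -0.58 and -1.04, so fascia and tendon cells also held less of both genes in the library labelled f/w. Without the cells holding markers of other cell types the ratio was -0.40 for Igf1 and -0.50 for Angptl1, under 1.5-fold for both, and with all cells thinned to 5000 UMIs and chosen again Igf1 gave 0.22 (-0.03 to 0.47) over 147 and 74 cells.

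Of 23 mesenchymal transcription factor genes compared, 2 were higher and 1 lower, against 2.2% and 3.36% of all genes, with a median of 0.02. Foxp1 (110 and 174 CPM) and Foxd1 (53.7 and 91.3 CPM, 0.77) were higher in the library labelled f/w and Tcf7l2 (137 and 83.5 CPM, -0.71) was lower. Osr2 gave 72.1 and 104 CPM (0.52), and Twist1, a factor of mesenchyme, 191 and 277 CPM. Without cells holding other markers Osr2 and Twist1 passed the fold too, whereas Tcf7l2 did not. This left 4 higher and none lower of 19, against 86 higher and 117 lower of all 4392 genes compared in that set.

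Of 16 genes of the collagen list, 4 were lower in the library labelled f/w and none higher, against 3.36% lower and 2.2% higher of all genes, with a median of -0.29: the microfibril collagens Col6a1 (525 and 346 CPM, -0.60), Col6a2 (411 and 271 CPM, -0.60) and Col6a3 (435 and 267 CPM, -0.70), and Col14a1, a fibril-associated collagen (314 and 184 CPM, -0.77). Of 32 genes of the matrix list, 4 were lower and none higher, against the same shares of all genes, with a median of -0.21. These were Fbn1, the microfibril protein fibrillin (179 and 110 CPM, -0.71), Postn, periostin (603 and 346 CPM, -0.80), Mfap5 (98.6 and 47.4 CPM, -1.06) and Emilin1 (65.1 and 41.9 CPM, -0.64). In the set without other markers Col14a1 (-0.63) was the only one of 15 genes of the collagen list past the fold. Of 31 genes of the matrix list, Fbn1, Fbln2 and Mfap5 were lower and none higher. Of all 4392 genes compared in that set, 117 were lower and 86 higher. Col8a1, a collagen gene on neither list, was higher there (1.57).

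Of 16 cell cycle genes, 4 were lower in the library labelled f/w, namely Mki67 (174 and 103 CPM, -0.76), Cdk1 (96.7 and 61.0 CPM, -0.66), Ccna2 (50.5 and 28.6 CPM, -0.82) and Mcm2 (33.6 and 19.7 CPM, -0.77), and Cdkn1a, an inhibitor of the cycle, was higher (123 and 188 CPM, 0.61), against 3.36% lower and 2.2% higher of all genes. The list had a median of -0.44. Without cells holding other markers, 5 of 15 genes of the list were lower, namely Mki67, Cdk1, Ccna2, Mcm3 and Mcm5, and none higher. Mcm2 was not among these 5, and Cdkn1a (0.39) did not pass the fold. Of all 4392 genes compared in that set, 117 were lower and 86 higher. Mki67 was there at 188 and 113 CPM in the fibroblasts and at 138 and 62.5 CPM in the reference cells, lower in the library labelled f/w in both. Of 13 stress genes, the heat shock genes Hspa1a (63.2 and 144 CPM, 1.19) and Hspa1b (27.0 and 60.2 CPM, 1.16) and the phosphatase gene Dusp1 (150 and 245 CPM, 0.71) were higher in all fibroblasts and none lower. This compares with 2.2% higher and 3.36% lower of all genes, and the list had a median of 0.33.

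Single-gene differences in all fibroblasts were led by markers of other cells. Cma1 and Cpa3, proteases of mast cells, were higher in the library labelled f/w (6.88 and 6.74, the latter from 3 and 216 UMIs), but 1 cell held 68.7% of its Cma1 UMIs. Haemoglobin genes were lower (Hba-x -8.78, from 656 UMIs and 1 UMI, Hbb-y -7.53), with 1 cell of the library labelled f/f holding 99.7% and 99.5% of their UMIs. Prph, Tubb3, Stmn2 and Rtn1 of neurons, Ctla2a and Emcn of endothelium, and Fabp4 were also higher, with 1 cell holding 53.9% of the Prph and 70.5% of the Fabp4 UMIs of the library labelled f/w. Fabp4 (-1.17) turned to lower without cells holding markers of other cell types. Emcn (-0.41, -1.23 to 0.35) and Rtn1 (-0.36, -1.32 to 0.54) held under 200 UMIs there, and their intervals span 0. In all fibroblasts Ibsp, Ifitm5 and Smpd3 of bone, Car3 and the cardiac and embryonic actin gene Actc1 were lower.

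Summed over their marker lists, endothelial genes were at 365 and 701 CPM with Ccl21a the most abundant, immune genes at 13.2 and 414 CPM with Cma1 the most abundant in the library labelled f/w, neural genes at 51.6 and 189 CPM and epithelial genes at 8.39 and 74.9 CPM (Cdh1 at 0 in the library labelled f/f). Osteoblast genes were at 1249 and 243 CPM, led by Ibsp, erythroid genes at 1619 and 122 CPM and Schwann genes at 12.7 and 4.72 CPM (Cdh19 at 0 in the library labelled f/w). By cells the order was the other way for 2 of these lists. At least 5 osteoblast UMIs were held by 4.46% and 6.33% of the fibroblasts, and at least 5 erythroid UMIs by 3.22% and 7.17%. Myogenic genes were at 144 and 53.3 CPM, with Pax7 and Myf5 at 0 in the library labelled f/w, tendon genes at 110 and 97.1 CPM, fascia genes at 210 and 127 CPM, chondrocyte genes at 281 and 280 CPM and pericyte genes at 193 and 183 CPM. The myogenic, tendon, fascia and chondrocyte lists include genes that the rule itself limited, so those sums are partly set by the rule. No doublet caller was run. Cells above 30000 UMIs made up 17 (4.21%) and 20 (8.44%) of the fibroblasts, and counts without them are given in the closing section.

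In the 528 fibroblasts without markers of other cell types, 86 of 4392 genes were higher in the library labelled f/w and 117 lower, of which 39 and 70 were among the 122 and 186. Cwc22, a core factor of pre-mRNA splicing, was at 18.2 and 59.9 CPM (1.72, 1.30 to 2.15), and in all fibroblasts at 17.9 and 61.3 CPM (1.78), with a UMI in 75 of 404 and 124 of 237 cells and no cell holding over 3.17% of its UMIs. In reference cells, also without those holding other markers, the ratio was 1.70. The antioxidant enzyme gene Hmox1 gave 1.48 (1.71 in these reference cells), Cxcl14 1.42 (0.60), the short-chain collagen gene Col8a1 1.57 (0.86), the small heat shock gene Hspb1 1.42 (0.90) and Foxd1 1.12 (1.07). Lower were Ccna2 (-1.14), the hyaluronan receptor gene Cd44 (-1.02, against -0.40 in these reference cells) and the neurotrophin receptor gene Ngfr (-1.01, against -1.06). Camk2n1 gave -1.02, against 0.08 in these reference cells, but in all fibroblasts it was under the fold (-0.48, -0.85 to -0.13). Car3 (-2.51) was lower as well, but 1 cell held 65.0% of its UMIs in the library labelled f/f and 1 cell 95.7% in the library labelled f/w. These genes were taken by the rule for named genes from a set chosen after its values were seen.

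**Figure D5:**
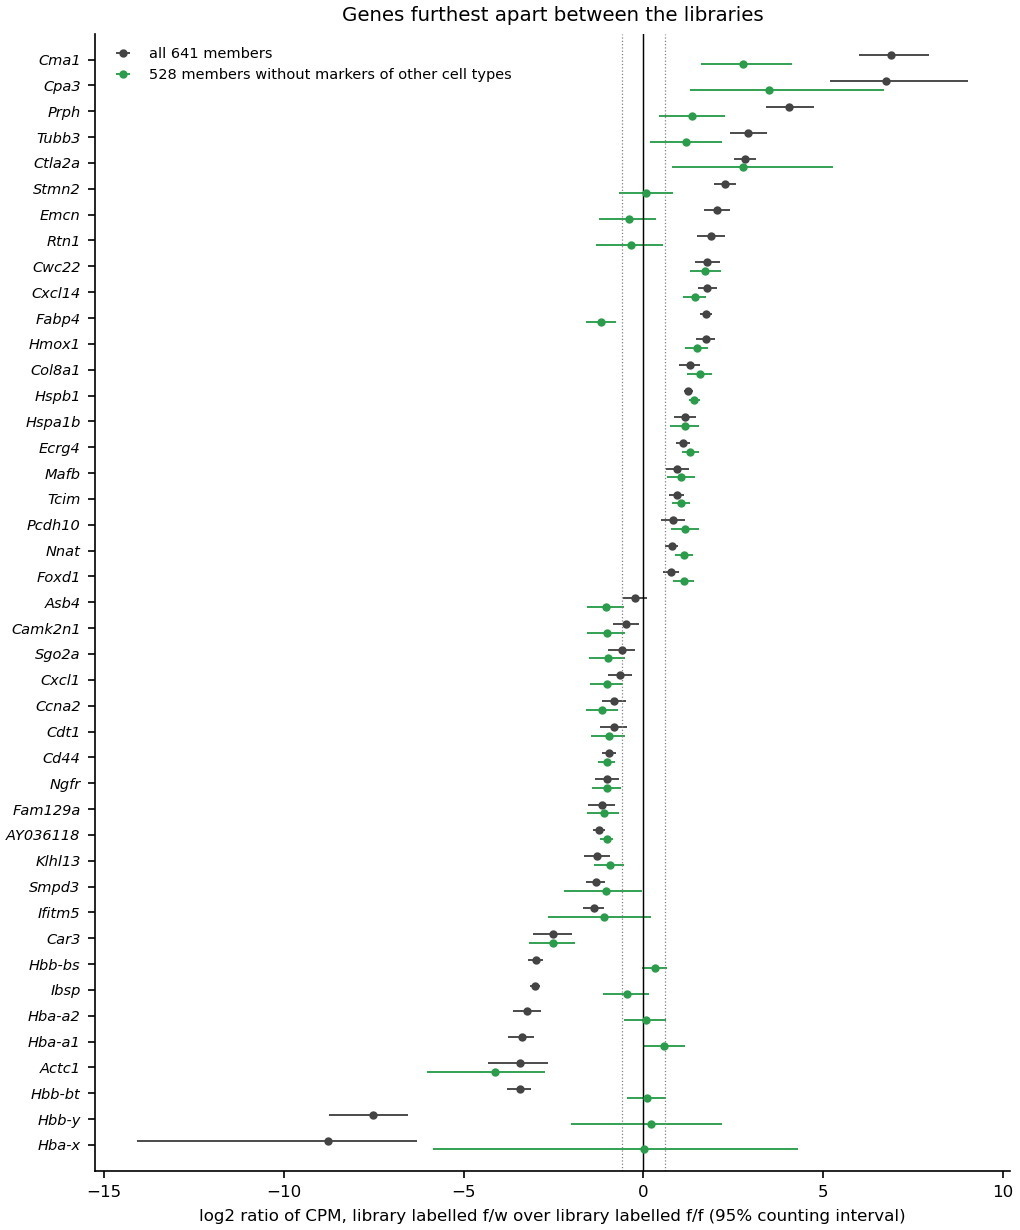
log2 ratio of CPM, library labelled f/w over library labelled f/f (x axis), of the genes furthest apart (rows) with 95% counting intervals, in all 641 fibroblasts (dark grey) and in the 528 without markers of other cell types (green). Dotted lines mark 1.5-fold. Cwc22 lies at 1.78 and 1.72. Cma1 and the haemoglobin genes are among the markers by which cells were removed, and Fabp4 goes from 1.73 to -1.17, with 1 cell of the library labelled f/w holding 70.5% of its UMIs before and 1 cell of each library 55.3% and 53.3% after.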

How the data were processed

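Cells sorted on tdT from E14 embryos had been sequenced as 1 library per label. The authors aligned reads to mm10, counted UMIs with Cell Ranger (5.0.0 in the matrix header and 3.1.0 in the submitters' processing notes), down-sampled reads and aggregated both libraries. The deposited values are counts, whole UMIs for 32285 genes and 27766 barcodes, from 156093779 UMIs labelled f/f and 128116615 labelled f/w. Barcode suffixes were tied to libraries by their cell numbers.

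Cells were selected by the rule above, UMIs were summed per library, and ratios of CPM were given exact binomial intervals on how a gene's UMIs divide between both sums, and shares Clopper-Pearson intervals (SciPy 1.17.1, NumPy 2.4.6 and pandas 2.3.3 under Python 3.11.15). No test was possible with 1 library per group. Named were the markers, listed genes, the 15 highest and 10 lowest over reference cells, the 12 highest and lowest between libraries and the 10 highest and lowest between classes. Scripts were tested on simulated data. TMM used edgeR 4.0.16 in R 4.3.3. Coordinates came from the GENCODE annotation of GRCm38, which held 32158 of the gene identifiers. The members and gene lists were chosen with earlier results of these data known.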

Additional observations from a re-analysis of the deposited data

How the results depend on the processing

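No paired analysis was possible because there is 1 library per group. The log2 ratio of the shares of fibroblasts, -0.48, was -0.23 (-0.47 to 0.01) when cells with any UMI of Pax7, Myf5, Myod1 or Myog were left out, -0.76 and -0.20 with the other denominators, -0.71 without cells holding markers of other cell types, and from -0.61 to -0.38 in the other alternatives. The counts between libraries, 122 higher and 186 lower, were 61 higher with at least 5 Osr1 and Meox2 UMIs, 123 lower without cells above 30000 UMIs, 10 and 22 after thinning, 451 and 681 with genes of at least 50 UMIs, and 117 lower without cells holding other markers. Over reference cells, 44 and 12 became 166 and 60 with genes of at least 50 UMIs and 27 higher without cells holding other markers. Between classes, 32 and 41 became 5 and 19 with at least 5 UMIs of either gene, 8 and 5 with genes of at least 200 UMIs, and 12 or 8 on the Meox2-only side without endothelial cells or without cells holding other markers.

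Genes between libraries that changed side were Ifitm5 (0.31) and Smpd3 (0.42) with at least 5 UMIs; Fabp4 (-0.10) and Ebf3 (0.0064, with an interval across 0) without cells above 30000 UMIs; Igf1 (0.22), Meox2 (0.21), Ebf2 (0.28), Stmn2 (-0.71), Emcn (-1.59), Rtn1 (-0.82), Car3 (1.80) and Smpd3 (2.99) after thinning; Emcn (-0.24) and Fabp4 (-1.42) without endothelial cells; and Meox2 (0.043), Emcn (-0.41), Rtn1 (-0.36), Fabp4 (-1.17), Hba-x (0.022), Hbb-y (0.21), Hbb-bt (0.089), Hba-a1 (0.58), Hba-a2 (0.059) and Hbb-bs (0.32) without cells holding other markers. Without cells holding other markers, the intervals of Emcn, Rtn1 and the haemoglobin genes span 0, with only 2 UMIs and 1 UMI of Hba-x. Haemoglobin genes are also among the markers that chose the cells removed, so their own change is fixed by that choice. The cause of the other changes was not tested. Cwc22 stayed between 1.67 and 2.13, Srsf2 between -0.75 and -0.35, Angptl1 between -0.92 and -0.47 and Tcf7l2 between -0.86 and -0.40. The settings on endothelial cells and other markers were chosen after seeing the data. Depth limits the thinned counts, where 812 genes could be compared.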

Other observations

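Hox genes mark position along the body axis. Summed by paralogue group, the 4 genes of group 9 were at 51.1 CPM in the fibroblasts of the library labelled f/f and 45.2 CPM in those of the library labelled f/w, the 3 of group 8 at 45.5 and 41.9 CPM, the 3 of group 10 at 42.9 and 36.9 CPM and the 4 of group 4 at 41.4 and 38.0 CPM. The sums are not ranked, since groups differ in their number of genes. Group 13, with 4 genes, was at 4.29 and 7.21 CPM with Hoxd13 held at 0 by the rule. These are sums over cells and do not say which groups a single cell held. Of 39 Hox genes 2 held 200 UMIs over both libraries, and Hoxc8 (31.1 and 18.9 CPM) was lower in the library labelled f/w. Of all genes 3.36% were lower and 2.2% higher. Without cells holding other markers no Hox gene could be compared.

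None of the 7 limb identity genes reached 200 UMIs. The hindlimb gene Pitx1 was at 10.4 and 9.15 CPM, the forelimb gene Tbx5 at 2.98 and 1.66 CPM and Tbx4 at 1.68 and 1.66 CPM, with Shox2 the highest at 22.6 and 21.6 CPM.

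Of 20 signal secretion genes compared, the guidance cue genes Slit2 (22.6 and 39.9 CPM) and Slit3 (20.3 and 33.0 CPM) were higher in the library labelled f/w, and Igf1 and Angptl1 lower, against 2.2% higher and 3.36% lower of all genes. Without cells holding markers of other cell types Slit2 (1.25) and Slit3 (1.04) held under 200 UMIs and were not counted. Of 12 signal antagonists none passed the fold. Of 15 receptor genes Fgfr2 was higher (20.7 and 32.2 CPM), and of 5 retinoic acid genes Aldh1a3, which makes retinoic acid, was lower (40.6 and 25.8 CPM). These are single genes of short lists. Without cells holding other markers Fgfr2 (0.45) held under 200 UMIs and Aldh1a3 (-0.58) did not pass the fold.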
